A study of Mus musculus with 3 samples.

Results

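The 42 genes described here encode the proximal T cell receptor signalling machinery, from the receptor chains at the membrane to the enzymes, adaptors and inhibitors that act directly on them. They were taken by symbol from a list that sets no threshold on a measured value, and all 42 matched 1 gene each among the 55536 genes of the mouse annotation GENCODE M21. By role, 10 belong to the receptor complex, coreceptors and associated surface molecules, 8 are kinases and other enzymes that carry the signal, 12 are adaptors and exchange factors, and 12 are negative regulators. Cd5 and Cd6, which are also known as inhibitory receptors, were kept with the receptor group.

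Polyadenylated RNA was sequenced from primary cells labelled as activated regulatory T cells, a class of CD4 T cells that restrains immune responses. The animal was a male adult mouse of 9 weeks, and its strain name joins Foxp3GFP-DTR, CD4CreERT2 and R26tdTomato, alleles that all 3 libraries therefore share. The labels give no further detail of how these alleles were used or of how the cells were activated. Per the labels, the 3 libraries have 1 biological replicate number and differ in their technical replicate number (1, 2 or 3), so no contrast between conditions exists, and every SD (n = 3) and p-value below measures only the spread between these libraries, which may be technical.

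A T cell receptor pairs antigen-binding chains with the CD3 and zeta chains, whose cytoplasmic tails carry the motifs that the Src-family kinase Lck phosphorylates. The kinase Zap70 docks on these motifs and phosphorylates the adaptors Lat and Lcp2 (SLP-76), on which phospholipase C, Vav1 and the Ras exchange factors assemble. Csk, phosphatases, diacylglycerol kinases and ubiquitin-binding or Src-like adaptors limit the signal, and regulatory T cells need receptor signalling to suppress.

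Replicate 1 held 20783676 estimated counts, replicate 2 held 21206219 and replicate 3 held 18496690. Levels are given in TPM (transcript abundance scaled to a fixed total), which is corrected for transcript length and so allows genes to be set side by side. The label was checked against 5 markers of regulatory T cells, all of them detected, with Foxp3 at 90.8, 96.4 and 83.0 TPM in replicates 1, 2 and 3. Their summed level was 1959, 1888 and 1754 TPM. The 8 B cell markers summed to between 63.3 and 72.8 TPM, the 10 myeloid and dendritic ones to between 32.1 and 47.9 TPM, the 5 natural killer ones to between 2.04 and 3.13 TPM, and the 4 platelet ones to between 1.11 and 1.34 TPM. The 5 gamma-delta T cell markers summed to between 11.2 and 15.4 TPM, with Sox13 at 0, and S100a8 of the myeloid list was also at 0. The 5 erythroid markers summed to 909, 1270 and 1146 TPM.

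Nearly all of the machinery was present, and much of it at high level. In every library 41 of the 42 genes reached 1 TPM, a level that 47.4% of 21951 protein-coding genes reached. The exception was Cd8a. A mean of 100 TPM or more was found for 24 of the 42, against 8.12% of protein-coding genes. The median of the 42 mean levels was 179 TPM, against 0.83 TPM over all protein-coding genes and 26.2 TPM over those detected. The median was 568 TPM in the receptor group, 179 TPM among negative regulators, 99.3 TPM among adaptors and 51.7 TPM among enzymes. Lck, Cd3e, Cd3g and Cd2 were above 1000 TPM, while Ubash3b, Pag1, Tec, Grb2, Sos1 and Cd8a were below 20 TPM. When the genes were ordered by mean level, 28 of 41 neighbouring pairs overlapped in their library values.

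**Figure D1:**
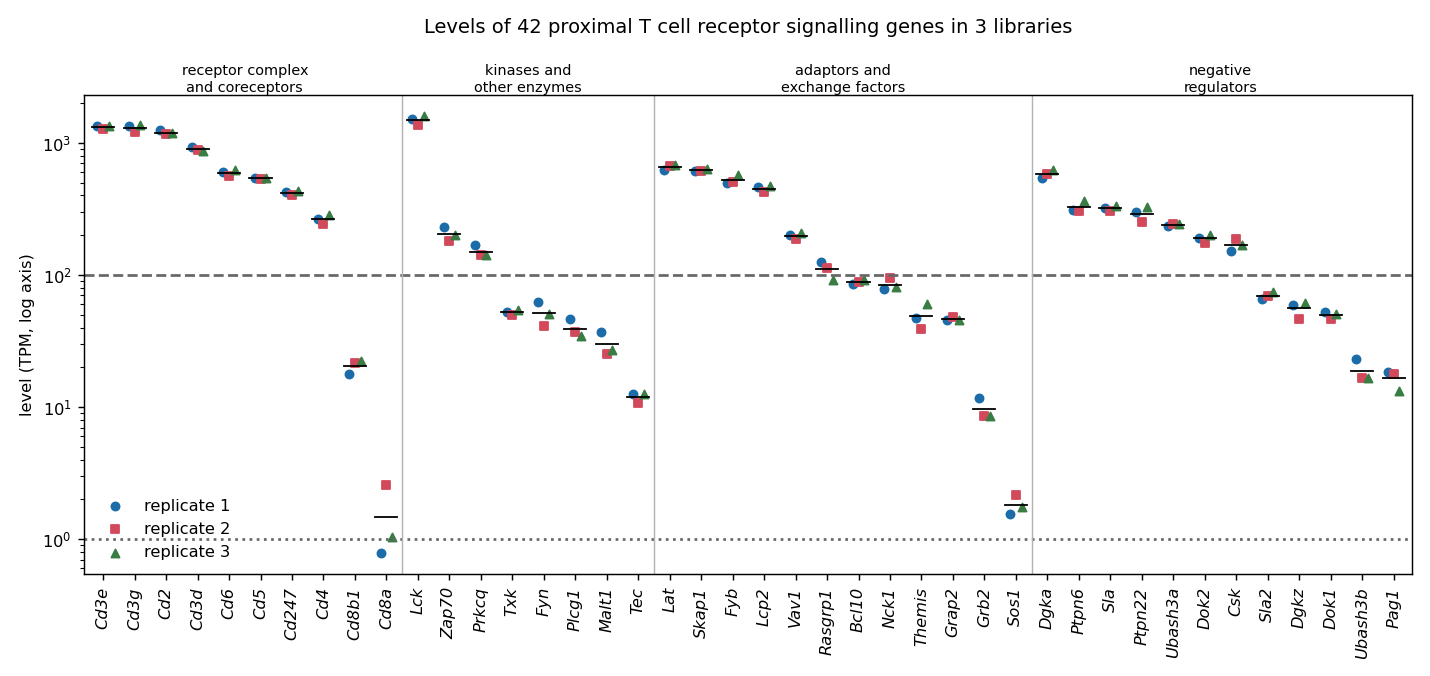
Level of each member in TPM on a log axis, by role; symbols are the 3 libraries, short bars their mean, and the dotted and dashed lines mark 1 and 100 TPM. Lck, Cd3e, Cd3g and Cd2 lie above 1000 TPM, and only Cd8a has a library below 1 TPM.

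The CD3 chains, which form the signalling dimers of the receptor, were among the most abundant members. Cd3e (CD3 epsilon) was at 1348, 1281 and 1354 TPM in replicates 1, 2 and 3, Cd3g (CD3 gamma) at 1338, 1218 and 1357 TPM, and Cd3d (CD3 delta) at 929, 878 and 875 TPM. Cd3e and Cd3g overlapped, and both were above Cd3d in every library. Cd3g exceeded Cd3d by 0.54 ± 0.08 in log2(TPM + 0.1). The 3 genes lie together on chromosome 9 of mm10, Cd3g on the minus strand at chr9:44969572-44980431, Cd3d on the plus strand at chr9:44981786-44987339 and Cd3e on the minus strand at chr9:44998740-45009627. Cd3g and Cd3d start 1354 bases apart and are read in opposite directions. The 250 bases upstream of these 2 starts, from RefSeq on GRCm38.p6, are shown because the pair is read outward from 1 intergenic stretch and differs in level. Capitals mark matches of the motifs searched below, GGAAGT (the core of Ets-family sites) and CAGNTG (an E-box), on either strand, at chr9:44980432-44980681 (minus strand) and chr9:44981536-44981785 (plus strand).
Cd3g promoter: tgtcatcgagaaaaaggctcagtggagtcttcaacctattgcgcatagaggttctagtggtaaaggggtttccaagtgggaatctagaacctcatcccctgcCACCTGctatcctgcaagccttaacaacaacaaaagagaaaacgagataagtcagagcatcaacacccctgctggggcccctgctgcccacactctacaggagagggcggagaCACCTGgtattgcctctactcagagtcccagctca
Cd3d promoter: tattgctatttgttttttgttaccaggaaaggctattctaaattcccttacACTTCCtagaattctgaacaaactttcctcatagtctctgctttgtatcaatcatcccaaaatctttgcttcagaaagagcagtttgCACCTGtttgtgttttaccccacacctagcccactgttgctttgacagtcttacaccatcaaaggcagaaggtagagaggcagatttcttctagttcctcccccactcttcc
The Cd3g stretch held 2 E-box matches and no Ets match, and the Cd3d stretch held 1 of each.

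Cd247 encodes the zeta chain, the receptor subunit with the most signalling motifs. Its level was 423, 404 and 430 TPM, below the 3 CD3 genes in every library, and the gap from Cd3e to Cd247 was 1.66 ± 0.01 in log2(TPM + 0.1), the smallest SD among the 15 pairs of members compared. The zeta transcript Cd247-201 and the transcripts with the alternative eta ending differ in their last coding stretch. That stretch is shown with 12 shared bases in lower case and the bases found in 1 form only in capitals, at chr1:165861004-165861066 for zeta and chr1:165866655-165866843 for eta (mm10, plus strand).
Cd247-201: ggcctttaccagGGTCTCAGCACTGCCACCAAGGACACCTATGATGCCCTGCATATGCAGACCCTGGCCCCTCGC
Cd247-202: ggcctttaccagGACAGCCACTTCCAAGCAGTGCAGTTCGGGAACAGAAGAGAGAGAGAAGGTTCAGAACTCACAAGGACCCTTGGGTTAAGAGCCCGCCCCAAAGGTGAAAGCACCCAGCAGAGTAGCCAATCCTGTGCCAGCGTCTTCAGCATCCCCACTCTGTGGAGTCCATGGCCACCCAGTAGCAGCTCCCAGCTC
Of the TPM of the transcripts with either ending, zeta took 96.3, 96.4 and 95.5% in replicates 1, 2 and 3 (96.1 ± 0.505%). The eta remainder is uncertain, because exons of Cd247 overlap those of Pou2f1 on the opposite strand over 3007 bases, Pou2f1 stood at 18.7 TPM, and the strand setting of the counting is not given in the sources used here.

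Among coreceptors, Cd4, which brings Lck to receptors bound to class II molecules, was at 267, 242 and 283 TPM. Cd8a and Cd8b1 encode the chains of the class I coreceptor CD8. Cd8b1 was at 17.7, 21.7 and 22.5 TPM and Cd8a at 0.79, 2.56 and 1.03 TPM, so that Cd8b1 was above Cd8a in every library. In counts, Cd8a had 23, 72 and 23 reads (95% exact Poisson intervals of 14.6 to 34.5, 56.3 to 90.7 and 14.6 to 34.5, for counting error only) and Cd8b1 had 335, 432 and 380. Replicate 2 therefore stood apart for Cd8a. Cd8b1 did not follow it, since replicates 2 and 3 were nearly equal there. Only 13.6% of the Cd8a TPM fell on protein-coding transcripts, and in replicate 3 the coding transcripts were listed at 0. The retained-intron transcript Cd8a-203 took the rest, whereas Cd8b1 has 1 annotated transcript, which is coding. In these bulk libraries, fewer cells of a type and less RNA per cell cannot be told apart.

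Further surface molecules were abundant. Cd2, an adhesion receptor for CD48 in mice, was at 1249, 1162 and 1184 TPM. Cd5, a scavenger-receptor family member that dampens receptor signals, was at 547, 535 and 539 TPM, and its relative Cd6, which binds CD166, was at 605, 560 and 625 TPM. Cd5 and Cd6 lie 50.3 kb apart on chromosome 19 and differed little, by -0.14 ± 0.07 in log2(TPM + 0.1), with Cd6 higher in every library. When only protein-coding transcripts were summed, the order reversed to 0.29, since retained-intron transcripts held 29.6 ± 1.96% of the Cd6 TPM against 4.94 ± 0.265% for Cd5. Cd6 also had 2 full-length coding forms, with and without a 117-base exon at chr19:10792828-10792944 (minus strand), shown in capitals because it is the part that the shorter form lacks.
Cd6-203: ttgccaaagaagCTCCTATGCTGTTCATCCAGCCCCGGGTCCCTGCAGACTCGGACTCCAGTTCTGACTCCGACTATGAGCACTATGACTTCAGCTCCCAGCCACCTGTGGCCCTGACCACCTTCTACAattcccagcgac
The form with this exon took 72.7, 67.4 and 69.4% of the 2 forms' TPM, so it was the larger form in each library.

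Lck, the Src-family kinase that starts the cascade, was the most abundant member when all transcripts were summed, at 1529, 1356 and 1589 TPM. Replicate 2 was the lowest. With protein-coding transcripts only, Lck averaged 1197 TPM, below Cd3g at 1282 TPM and Cd3e at 1237 TPM, and Cd3g was above Lck in every library. Fyn, the other Src-family kinase among the members, was at 62.3, 41.2 and 50.3 TPM. Lck exceeded Fyn by 4.88 ± 0.23 in log2(TPM + 0.1), which is 29.4-fold on that scale, or by 4.55 with protein-coding transcripts only. Full-length coding transcripts of Lck start at 2 places 15.3 kb apart, at position 129573641 of chromosome 4 (minus strand; Lck-202) and between 129558372 and 129558391 (Lck-208 and Lck-201). The upstream start took 62.1, 62.7 and 60.7% of their TPM (61.8 ± 1.02%) and the downstream start the other 38.2 ± 1.02%. The upstream start was thus the larger source in each library, with little spread. The 250 bases before each start, at chr4:129573642-129573891 and chr4:129558373-129558622 in RefSeq on GRCm38.p6, are shown because both starts were in use; capitals mark GGAAGT and CAGNTG as above, and also TGTGGT, a core of Runx sites.
Lck upstream promoter: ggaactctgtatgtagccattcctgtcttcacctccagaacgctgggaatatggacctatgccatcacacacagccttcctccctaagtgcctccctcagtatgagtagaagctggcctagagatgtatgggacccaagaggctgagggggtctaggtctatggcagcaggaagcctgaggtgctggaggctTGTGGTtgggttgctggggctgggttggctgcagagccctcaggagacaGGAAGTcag
Lck downstream promoter: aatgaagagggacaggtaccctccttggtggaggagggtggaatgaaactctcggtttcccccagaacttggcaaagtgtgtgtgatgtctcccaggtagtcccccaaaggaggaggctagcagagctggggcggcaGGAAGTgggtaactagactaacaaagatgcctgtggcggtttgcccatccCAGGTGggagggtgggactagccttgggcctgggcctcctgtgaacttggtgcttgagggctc
GGAAGT was found in both, TGTGGT only before the upstream start, and CAGNTG only before the downstream one. Lck-208, from the downstream start, has 1560 coding bases against 1527 in Lck-202. A short retained-intron transcript, Lck-207, of 450 bases, took 17.2, 24.1 and 16.5% of the gene's TPM but a mean of 4.52% of its estimated counts, and it was highest in replicate 2, where Lck as a whole was lowest.

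Fyn has alternative exons at the start of its kinase domain, the one in Fyn-201 being known from T cells and the one in Fyn-202 from brain. They are shown in capitals at chr10:39529919-39530074 and chr10:39529437-39529601 (plus strand), with shared flanks in lower case, since they decide which kinase form is made.
Fyn-201: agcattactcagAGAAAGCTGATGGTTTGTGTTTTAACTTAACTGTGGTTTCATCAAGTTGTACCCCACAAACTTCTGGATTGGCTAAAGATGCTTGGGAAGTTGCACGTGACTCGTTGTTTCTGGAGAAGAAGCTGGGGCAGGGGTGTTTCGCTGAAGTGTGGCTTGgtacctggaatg
Fyn-202: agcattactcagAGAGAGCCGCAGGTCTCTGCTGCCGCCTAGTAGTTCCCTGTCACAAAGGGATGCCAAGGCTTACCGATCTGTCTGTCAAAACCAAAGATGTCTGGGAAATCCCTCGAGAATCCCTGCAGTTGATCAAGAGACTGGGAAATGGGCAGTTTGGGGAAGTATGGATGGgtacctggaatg
Between transcripts that hold one or the other, the Fyn-201 exon took 87.1, 93.4 and 90.7% of the TPM (90.4 ± 3.17%). A coding transcript that lacks both, Fyn-206, took 22.8 ± 3.10% of the whole gene's TPM.

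Zap70, the kinase recruited to phosphorylated receptor tails, was at 230, 182 and 201 TPM, and Prkcq, a protein kinase C of the immune synapse, at 167, 142 and 143 TPM. Replicate 1 was highest for both. The Tec-family kinases Txk and Tec lie 2.94 kb apart on chromosome 5 and stood at 52.5, 49.6 and 54.4 TPM and 12.5, 10.7 and 12.5 TPM, with Txk above Tec by 2.13 ± 0.07 in log2(TPM + 0.1). Plcg1, the phospholipase that releases calcium and diacylglycerol signals, was at 46.3, 36.9 and 34.6 TPM, far above its relative Plcg2 at 0.87 TPM. Malt1, a protease that acts in a complex with Bcl10, was at 37.2, 25.3 and 27.0 TPM. Both were highest in replicate 1. Bcl10 exceeded Malt1 by 1.59 ± 0.33 in log2(TPM + 0.1), or by 2.68 with protein-coding transcripts only. Of the 2 annotated coding forms of Malt1 that differ by a 33-base segment, the one that has it, Malt1-202, was given no estimated counts in any library. Counting error alone would allow up to 3 counts per library, but the division of reads between the forms adds error that this floor leaves out. The deposited posterior mean share of Malt1-202 was 0.743% of the gene.

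The membrane and cytosolic scaffolds were high. Lat, the membrane adaptor phosphorylated by Zap70, was at 628, 665 and 686 TPM. Skap1 and Fyb (ADAP), which link the receptor to integrins, were at 613, 615 and 638 TPM and at 501, 510 and 567 TPM. Lcp2, the SLP-76 scaffold, was at 463, 423 and 468 TPM. These 4 were the highest adaptors, and replicate 3 was highest for each in TPM. In counts scaled to library size, Lat was instead highest in replicate 2 and Lcp2 in replicate 1. Fyb shares 231 exon bases with Gm7666 on the same strand, a gene at 74.7 TPM, so its estimate rests partly on how such reads were divided.

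Several adaptors had more than 1 coding form. Lat-201 and the shorter Lat-206 differ by 30 bases at chr7:126368186-126368215 (minus strand), in capitals here because the longer form was nearly the sole one.
Lat-201: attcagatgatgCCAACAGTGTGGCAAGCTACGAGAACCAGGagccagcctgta
The form with this segment took 96.8, 94.1 and 94.3% of the TPM. Lcp2-201 and Lcp2-202 end in different coding stretches, at chr11:34090565-34090684 and chr11:34089681-34089770 (plus strand), shown because neither form was rare.
Lcp2-201: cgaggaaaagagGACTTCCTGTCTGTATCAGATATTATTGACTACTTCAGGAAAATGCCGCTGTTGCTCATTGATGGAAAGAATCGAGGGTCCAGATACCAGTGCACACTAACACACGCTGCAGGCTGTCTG
Lcp2-202: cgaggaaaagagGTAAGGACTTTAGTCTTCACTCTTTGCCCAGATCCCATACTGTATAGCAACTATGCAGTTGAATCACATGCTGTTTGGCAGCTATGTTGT
Lcp2-201 took 61.8, 62.4 and 57.8% of the TPM of the 2 and 71.9% of their estimated counts. In Skap1, the form with a 48-base exon, Skap1-204, took 22.1 ± 0.378% and the form without it took the majority in each library.

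Vav1, an exchange factor that acts on the actin machinery, was at 201, 188 and 209 TPM, above its relatives Vav2 (7.15 TPM) and Vav3 (6.29 TPM). Rasgrp1, which loads Ras in response to diacylglycerol, was at 125, 113 and 92.1 TPM and was lowest in replicate 3. Bcl10 was at 85.8, 88.2 and 91.5 TPM, and Nck1, an adaptor that binds Cd3e, at 78.2, 94.4 and 81.6 TPM. Nck1 was about as abundant as Bcl10, and its relative Nck2 was at 8.68 TPM. Themis, which is known for its part in thymocyte selection, was at 47.1, 39.1 and 60.6 TPM, with replicate 3 high and replicate 2 low.

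The Grb2 family differed widely in level. Grb2, the general adaptor between tyrosine kinases and the Ras exchange factor SOS, was at 11.7, 8.53 and 8.58 TPM. Grap2 (GADS), which joins Lat to Lcp2, was at 45.3, 48.4 and 46.0 TPM, and Grap, which is not among the 42, at 356 ± 13.3 TPM. Grb2 was therefore below Grap2 in every library, by -2.28 ± 0.29 in log2(TPM + 0.1). Sos1 itself was at 1.55, 2.14 and 1.74 TPM and its relative Sos2 at 4.16 ± 0.230 TPM. Grb2 and Sos1 were the lowest adaptors in each library.

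Of the 12 negative regulators, 7 reached a mean of 100 TPM. Dgka, a kinase that consumes diacylglycerol, was at 540, 585 and 620 TPM, and its relative Dgkz at 58.9, 46.7 and 61.8 TPM, a difference of 3.39 ± 0.23 in log2(TPM + 0.1), or 4.61 with protein-coding transcripts only. Ptpn6 (SHP-1) was at 310, 305 and 362 TPM and Ptpn22, a phosphatase of Lck and Zap70, at 301, 250 and 325 TPM. The values of these phosphatases overlapped, although Ptpn6 was the higher within each library, by 0.16 ± 0.12 in log2(TPM + 0.1), or by 1.09 with protein-coding transcripts only. Csk, the kinase that locks Src-family members in their closed form, was at 152, 188 and 167 TPM, and Pag1, a membrane anchor of Csk, at 18.3, 17.9 and 13.3 TPM. Csk exceeded Pag1 by 3.36 ± 0.30 in log2(TPM + 0.1), or by 4.78 with protein-coding transcripts only.

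Ubash3a and Ubash3b encode STS-2 and STS-1, phosphatase-like proteins that bind ubiquitin. Ubash3a was at 236, 243 and 242 TPM and Ubash3b at 23.3, 16.5 and 16.7 TPM. The gap of 3.69 ± 0.30 in log2(TPM + 0.1) shrank to 2.02 when only coding transcripts were summed, because Ubash3a-204, annotated as a processed transcript, took 48.9 ± 0.594% of the Ubash3a TPM. The Src-like adaptors Sla and Sla2, which promote receptor loss from the surface, were at 323, 306 and 334 TPM and at 65.8, 69.4 and 74.3 TPM. The docking proteins Dok2 and Dok1, which recruit Ras inhibitors, were at 191, 176 and 200 TPM and at 52.3, 46.2 and 50.6 TPM. In each of these families 1 gene was the higher in all 3 libraries, with a difference of -2.20 ± 0.08 for Sla2 minus Sla and of 1.93 ± 0.06 for Dok2 minus Dok1 in log2(TPM + 0.1).

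Ptpn6 used 2 start regions 5.43 kb apart on chromosome 6 that give different first coding bases, shown here at chr6:124732946-124732953 and chr6:124738499-124738512 (minus strand) with the bases of 1 form in capitals and the shared bases in lower case.
Ptpn6-202: ATGGTGAGgtggtttcaccg
Ptpn6-203: ATGTTGTCCCGCGGgtggtttcaccg
The downstream start, of Ptpn6-202, took 75.7, 71.7 and 70.8% of the TPM of full-length coding transcripts, more than the upstream start in each library. Ubash3b also had 2 starts, 78.6 kb apart. The downstream one took 52.5 ± 3.03% by TPM, which is corrected for length. Its transcript Ubash3b-206, of 2231 bases against 6354 for Ubash3b-201 from the upstream start, had 27.6% of the gene's estimated counts.

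**Figure D2:**
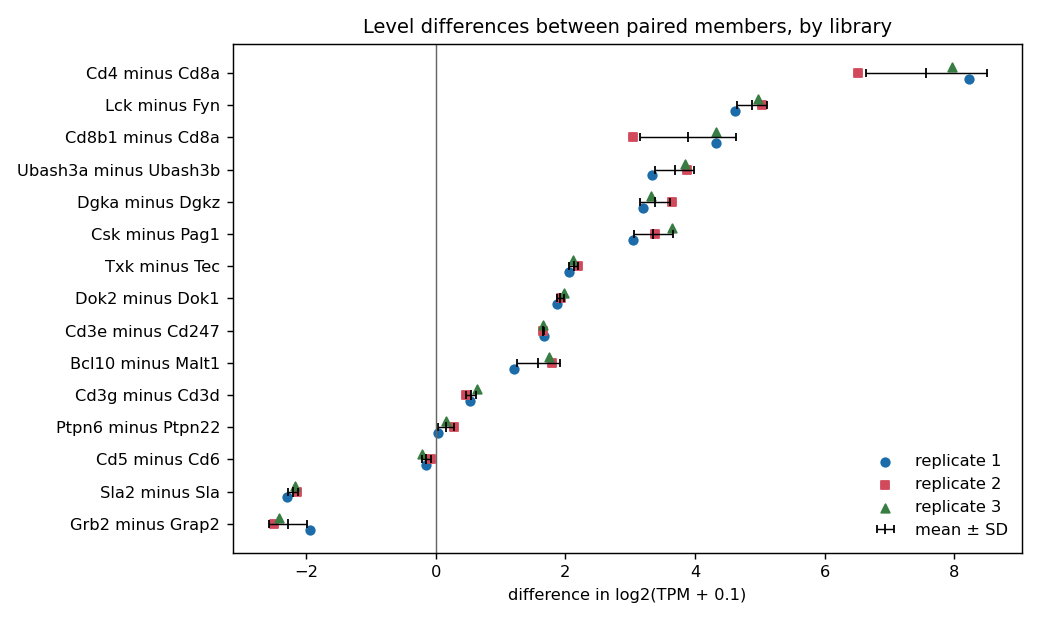
Difference in log2(TPM + 0.1) between 15 pairs of members related by family, complex or locus, with 1 symbol per library and the mean ± SD. Every pair has the same sign in all 3 libraries, and Cd5 with Cd6 and Ptpn6 with Ptpn22 lie nearest to 0.

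The 15 pairs were set by shared family, complex or locus, and the plot of pair differences shows that all 15 kept 1 direction across the 3 libraries. Cd4 over Cd8a had the largest mean, 7.57 ± 0.93, or 10.0 with protein-coding transcripts only, and also the largest SD. The Lck to Fyn gap was second by mean. With 3 libraries and no second group no test was made.

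Beyond the 42, 63 other genes of T cell receptor signalling were listed. In all 3 libraries 52 of them reached 1 TPM, 19 averaged at least 100 TPM, and the median of the list was 24.4 TPM. By the library test described next, 36 of the 62 that could be tested differed, beside 44.9% of all genes tested. The highest were the constant genes of the receptor's antigen-binding chains, Trbc2 at 4012 ± 176 TPM, Trac at 3180 ± 250 TPM and Trbc1 at 1937 ± 80.2 TPM. Among the lowest that reached 1 TPM in every library were Ptpn3 (1.59 TPM) and Dok3 (2.02 TPM). Syk, the relative of Zap70 used by B cells, was at 1.18, 0.96 and 1.48 TPM, far under Zap70. Among relatives of members, Skap2 was at 24.7 TPM, Themis2 at 3.52 TPM, Rasgrp2 at 86.4 TPM and Rasgrp3 at 0.607 TPM.

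For most of the machinery the estimated counts differed between libraries by more than the counting noise that the test assumes, by small amounts. The error of dividing reads among genes is not part of that noise. Pearson's chi-square test of homogeneity on estimated counts with Benjamini-Hochberg adjustment, which compares libraries and not conditions, called 34 of the 42 at an adjusted p under 0.05, against 44.9% of 14641 genes tested. The members have deep counts, and where the counts of all libraries summed to at least 3000, 28 of 35 members were called, against 66.5% of genes. The median ratio of the highest to the lowest library, in CPM (counts scaled to library size), was 1.13 over all 42. Among the 35 deep members, 10 had a ratio of 1.2 or more, against 20.6% of deep genes, and 1, Themis, a ratio of 1.5 or more, against 1.66%. Cd3d, Cd247, Cd5, Txk, Tec, Skap1, Bcl10 and Dok1 did not pass the test. Without replicate 2 the count of called members was 22, the lowest of the 3 counts with 1 library left out, and the share over all genes tested was also lowest then, at 27.7%.

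The largest differences were in genes of different roles. Cd8a had the highest ratio at 3.07, on few counts, and without replicate 2 it did not pass (chi-square adjusted p = 0.823 after Benjamini-Hochberg adjustment). Themis had 111, 91.3 and 141 CPM in replicates 1, 2 and 3, a ratio of 1.55 (chi-square adjusted p = 1.23e-46), and Fyn had 92.0, 61.4 and 74.5, a ratio of 1.497 (chi-square adjusted p = 2.34e-27). Sos1, at a ratio of 1.41, was also low in counts. Rasgrp1 had 327, 296 and 242 CPM, a ratio of 1.35 (chi-square adjusted p = 9.89e-53). Themis was thus highest in replicate 3 and Fyn in replicate 1, while Rasgrp1 was lowest in replicate 3. Grb2 (1.32), Malt1 (1.29), Plcg1 (1.29) and Dgkz (1.28) came next by ratio. At the other end, Cd5 and Cd3d varied by ratios of 1.01.

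The called members did not share 1 direction. Of these 34, 12, 7 and 15 were highest in replicates 1, 2 and 3, beside 38.1, 31.7 and 30.2% of all 6575 genes called, and 12, 16 and 6 were lowest there, beside 29.9, 36.6 and 33.6%. By role, 5 of the 6 called enzymes were highest in replicate 1 and 5 of the 7 called receptor-group genes in replicate 3, while the 10 called adaptors were split into 3, 4 and 3 and the 11 called negative regulators into 3, 2 and 6. Differences between roles were not tested. Replicate 2, the lowest library for 16 of the 34, also had the highest summed erythroid markers and the lowest summed myeloid markers, and their part in these differences was not tested.

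**Figure D3:**
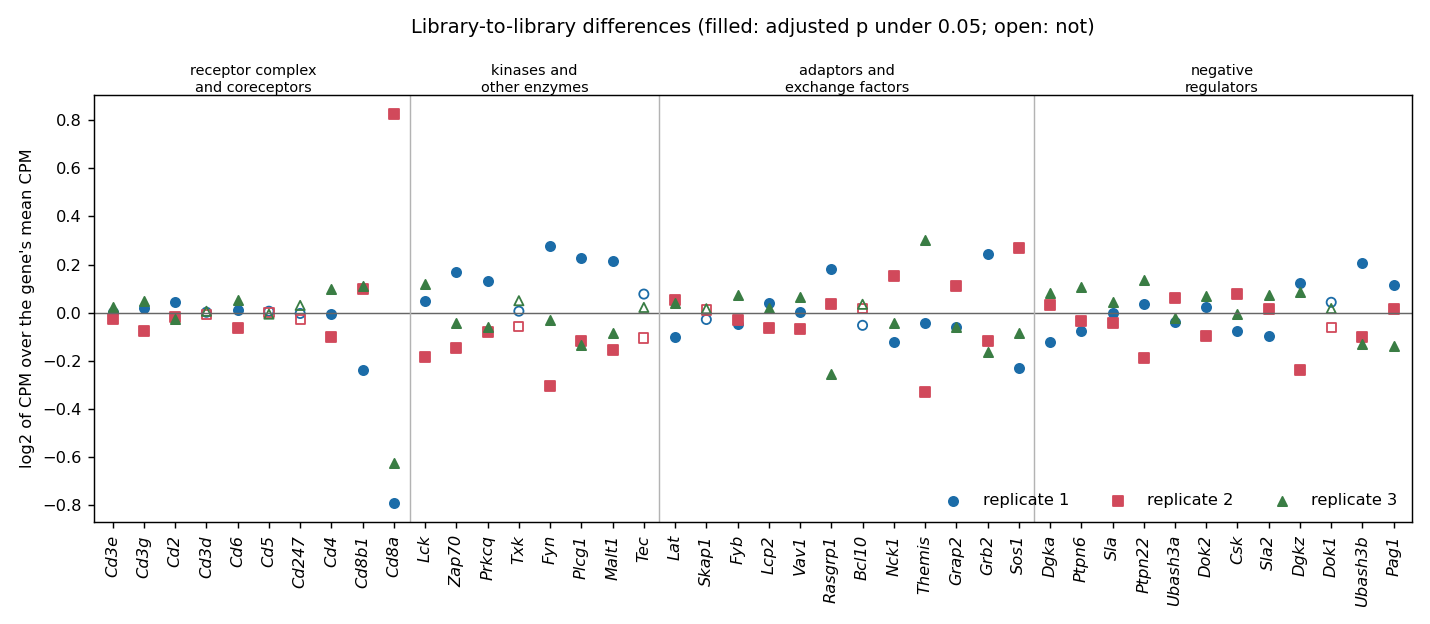
Log2 of each library's CPM over the gene's mean, by role, with filled symbols for genes that passed the chi-square test and open symbols for the others. Cd8a is the widest, with replicate 2 highest, and replicate 1 is the highest in 6 of the 8 enzymes.

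At the level of transcripts, the members were led by 1 transcript about as often as other detected genes. The leading transcript had 50% or more of the gene's TPM in 30 of the 42, beside 72.2% of detected protein-coding genes, and 90% or more in 11, among them Cd2, Cd3g, Cd4, Vav1 and Bcl10. It was a coding transcript in 39, the exceptions being Cd8a, Pag1 and Ubash3a. A second transcript took 20% or more in 15 genes, namely Cd3d, Cd6, Lck, Fyn, Tec, Lcp2, Nck1, Themis, Fyb, Rasgrp1, Dgkz, Ptpn22, Pag1, Ubash3b and Sla2. Some of these second transcripts are short fragments whose TPM is large for few reads. Cd3d-202, of 286 bases, took 32.3 ± 4.38% of the Cd3d TPM and 7.44% of its estimated counts, and Fyb-209, of 434 bases, took 23.4 ± 0.655% and 5.62%.

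The share of TPM on protein-coding transcripts had a median of 91.5% over the members, against 86.7% over detected protein-coding genes. It was under 50% in 5 of the 42 members, beside 15.2% of those genes. They were Cd8a (13.6%), Ubash3a (30.4 ± 0.807%), Pag1 (31.7 ± 4.58%), Dgkz (40.4 ± 5.04%) and Malt1 (44.9 ± 1.99%). By estimated counts only Cd8a and Ubash3a stayed under 50%, and Pag1 reached 78.7%. In Dgkz, transcripts marked for nonsense-mediated decay, a pathway that removes RNAs with early stop codons, took 35.9 ± 4.00%, and in Ptpn22 they took 27.3 ± 1.26%. Retained-intron transcripts took 45.2 ± 0.363% in Malt1, 27.3 ± 1.78% in Rasgrp1 and 21.2 ± 1.10% in Zap70.

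**Figure D4:**
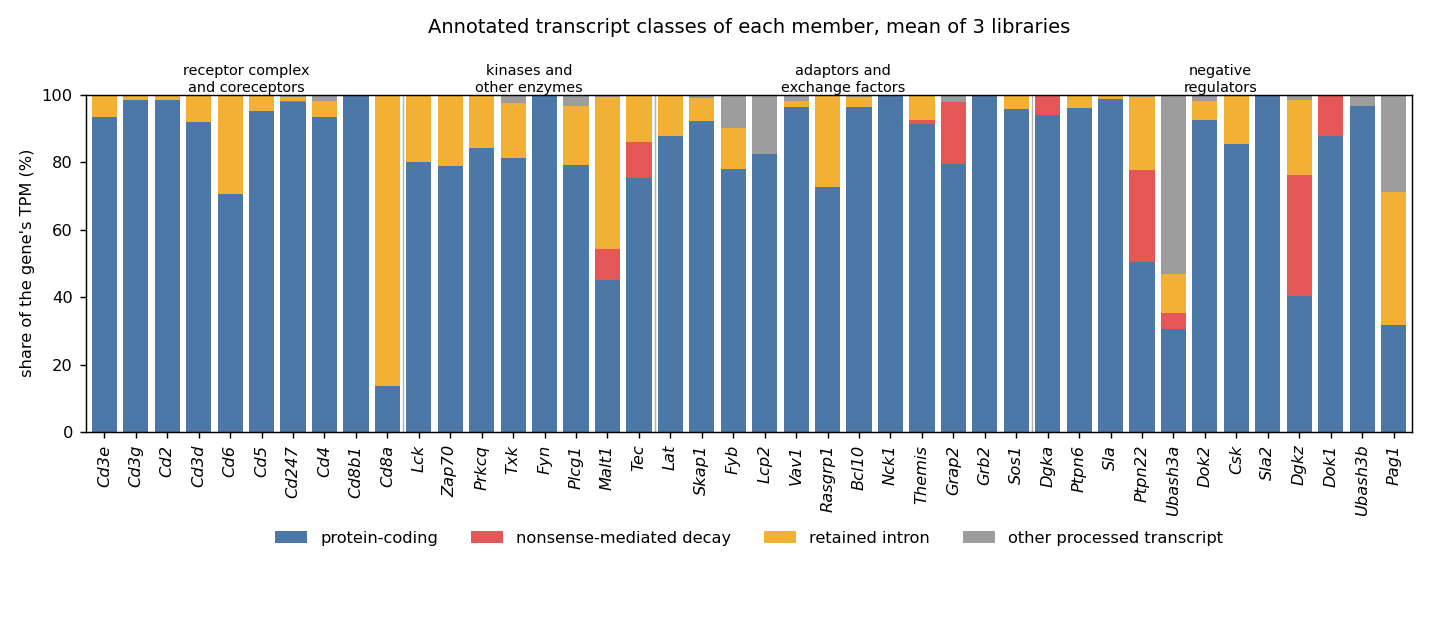
Share of each member's TPM on annotated transcript classes, as the mean of 3 libraries, stacked to 100%. Cd8a, Ubash3a, Pag1, Dgkz and Malt1 have less than 50% on protein-coding transcripts.

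In 2 low members the coding forms were poorly fixed. In Tec, the form with a 66-base segment took 49.4, 87.5 and 75.7% in replicates 1, 2 and 3. In Grb2, the form with a 123-base exon took 100, 84.5 and 74.7%. The libraries spread widely for both, in contrast to the narrow ranges of Cd247 and Skap1. All the pairs of transcripts described above were chosen after their values were seen.

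Promoters from RefSeq were matched for 32 of the 42 genes and searched on both strands over 250 bases upstream of 1 start per gene, the one listed first, which for Lck is the upstream start. GGAAGT was found in 11 (34.4%), against 19.99% of 27025 genes' promoters, and CAGNTG in 18 (56.3%), against 44.5%. TGTGGT was found in 3, Lck, Sla2 and Sos1 (9.38%, against 14.2%), and TATAAA in 1, Grb2 (3.13%, against 13.0%). Among the receptor chains, Cd3d, Cd3e and Cd247 had GGAAGT and Cd3d, Cd3g and Cd247 had CAGNTG. A match describes letters in the window and is not a measured site.

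The second deposited gene table gave lower counts for the abundant members. It held 30.3, 29.3 and 31.1% of the estimated counts of replicates 1, 2 and 3. For Cd3e it listed 1255, 1259 and 1256 counts, against 25666, 25715 and 23162 estimated counts, and for Lck 3243, 3238 and 3248, against 35518, 30824 and 33202. The raw counts of each gene were thus nearly equal across libraries there. Set against that table's library totals of 6288764, 6209287 and 5746072, Lck was called (chi-square adjusted p = 0.0025 after Benjamini-Hochberg adjustment). With counts this flat, the call follows the totals. Relative to them, replicate 2 was not the lowest library for Lck, unlike in the estimated counts. Across genes, the second table's median share of the estimated count was 51.1% for those with 30 to 300 estimated counts. For those with 30000 or more the share was 2.96%. That table's counts per base of length stayed at a median of 0.983 and 0.960 in the highest 2 bins. Among the 42, the share ran from 5.06% for Cd3e to 67.4% for Dok1. Grb2 and Pag1, at 17.1% each, were low for their counts, with 7.33% and 7.36% of genes of like count below them. There, 20 of the 42 differed between libraries by the chi-square test, against 23.2% of 10885 genes, whatever their depth. No share over genes of like depth was taken for that table. Where a member's counts were flat, as for Lck, a call follows the totals. How its reads were counted is not given in the sources used here, and the cause of the flattening was not tested.

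**Figure D5:**
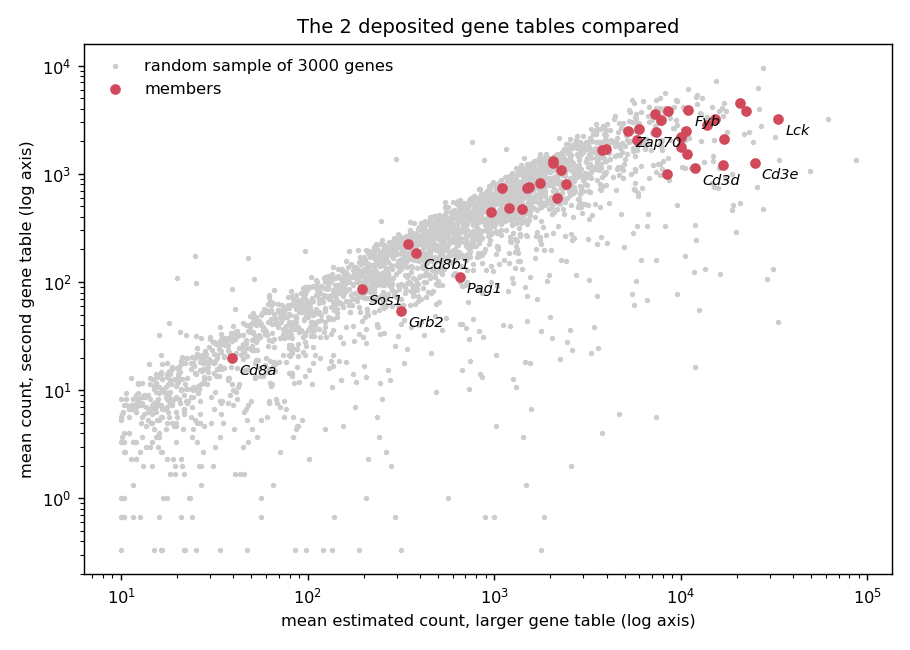
Mean count of each gene in the second table against its mean estimated count in the larger table, both on log axes, with members in red and a random sample of 3000 genes in grey. Members with high counts, such as Cd3e and Lck, bend below the line followed by members with few counts.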

How the data were processed

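RNA-seq of polyadenylated RNA was analysed for 3 libraries of 1 biosample. The authors deposited gene and transcript tables on mm10 with GENCODE M21, per the file headers and labels. No aligner, quantifier version or strand setting was named in the sources used here. The deposited estimated counts (expected counts) divide reads among genes or transcripts and were rounded to whole numbers for the test. The deposited TPM and FPKM values are scaled to length and depth, and the transcript tables' deposited percent columns give isoform shares. The authors also deposited whole-number counts on GENCODE M4 for each library. The larger table has 81881 lines, of which 26345 name no gene and were left out of library totals.

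Levels are means of TPM with the SD over libraries. Pearson's chi-square test (2 degrees of freedom) was run over all genes whose 3 counts summed to at least 30 and adjusted by Benjamini-Hochberg, after it was tested on simulated data. The simulated counts were Poisson, the noise that the test assumes, so they cannot show how it behaves on estimated counts. Pair differences used a pseudocount of 0.1. Intervals and floors (3 counts, 0.144, 0.141 and 0.162 CPM in replicates 1, 2 and 3) cover counting error only, and not the division of reads among transcripts. Transcript shares are shares of summed transcript TPM. Coordinates are 1-based; coding segments were read from mm10 and promoters from RefSeq. All 42 members are named, and of the other pathway genes the 3 highest, the 3 lowest detected and the relatives of members; some genes that this rule names are not reported here. The members and lists were chosen with earlier results of these data known. Alternatives were other thresholds, FPKM, other scalings (edgeR 4.0.16, DESeq2 1.42.0), other count filters, a deviance statistic, the second table, coding transcripts only, and each library left out. Protein sequences were not used here. Scripts ran in R 4.3.3 and Python 3.11.15 with scipy 1.17.1, statsmodels 0.14.6, pandas 2.3.3, numpy 2.4.6 and, for plots, matplotlib 3.10.9.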

Additional observations from a re-analysis of the deposited data

How the results depend on the processing

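The detected count of 41 ran from 40 to 42 under other thresholds, FPKM, the second table and left-out libraries, and the 24 members at 100 TPM or more became 22 with FPKM or with protein-coding transcripts only. The median level of 179 TPM moved to 136 TPM with protein-coding transcripts only, and ran from 176.8 to 182.8 TPM when 1 replicate was left out. A mean of log2(TPM + 0.1) over the members, turned back to TPM, was 127 TPM, which is a different statistic from the median. The 34 members that differed between libraries were between 33 and 36 under other statistics, scalings and count filters, 20 in the second table, and between 22 and 29 with 1 replicate left out (22 without replicate 2, 25 without replicate 1). All 34 were also called with TMM and with DESeq2 size factors. The 30 members led by 1 transcript became 41 by estimated counts or among protein-coding transcripts and 26 by posterior mean shares, and were between 28 and 32 with 1 replicate left out. The protein-coding sums for levels and the posterior mean shares were chosen after seeing the data. All 15 pairs kept 1 direction across libraries in each setting. Of 75 pair values under other settings 60 stayed within 1 SD of the reported value, 14 moved further and 1 reversed. Values with 1 of 3 libraries left out cannot move by more than 1 SD or change a shared direction, so they add no information. With protein-coding transcripts only, every pair except Sla2 and Sla moved further or reversed. The pair that reversed was Cd5 and Cd6, whose log2 difference was then 0.29. With a pseudocount of 1, only Txk and Tec moved further. No paired analysis was possible because there is 1 group. Depth limits Cd8a, Sos1, Grb2 and Tec most, and the search of protein sequences was not run.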
